A study of Glycine max with 24 samples.

Results

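Plants move sugars, organic acids, nitrogen, metals and water across membranes through families of transporters and channels. The members described here are the probe sets of the soybean array that carry a single gene symbol made of SWEET, ALMT, NRAMP, ZIP, YSL, AMT, NRT, HAK, AKT, NHX, CAX, PIP, TIP, NIP or SIP followed by a digit, leaving out ALMT16, ALMT34 and NRAMP2A. Those 3 were each called between P levels in 1 comparison by the call defined further on, so the members are the transporters without them. The rule found 111 of the 75990 probe sets, for 110 symbols, since AMT1.1 has 2 probe sets. Of the 15 family names, 12 had a member. There were 32 SWEET, 18 ALMT, 12 AMT, 2 NRT, 1 NHX, 11 NRAMP, 1 ZIP, 1 YSL, 11 PIP, 4 TIP, 13 NIP and 5 SIP probe sets, and none for HAK, AKT or CAX.

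The soybean accessions CD, labelled low-P tolerant, and YH, labelled low-P sensitive, were raised as seedlings in hydroponics on diluted Hoagland solution. Its P was set to 0.5 mmol/L for the normal P groups and to 0.005 mmol/L for the low P groups. After 10 days roots and leaves were taken, and each of the 8 groups, CD or YH in roots or leaves at normal P or low P, had 3 biological replicates, and each replicate was 1 array, 24 in all. Each tolerance class was a single accession, so a difference between CD and YH cannot be told apart from any other difference between those accessions, and the labels do not say how many plants made up a replicate.

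SWEET proteins let sugars pass membranes down their gradient and are known for loading sucrose into the phloem, filling seeds and feeding nectaries. ALMT proteins are anion channels, first known for releasing malate from roots in aluminium-rich soil. Ammonium enters cells through AMT proteins and nitrate through NRT proteins. NRAMP proteins carry divalent metals such as iron and manganese with protons, YSL proteins carry metals bound to nicotianamine, and NHX proteins exchange sodium or potassium for protons. The aquaporins form channels for water and small neutral solutes: PIP in the plasma membrane, TIP in the vacuolar membrane, NIP, named after nodulin 26 of soybean nodules, also for boron and silicon, and SIP in the endoplasmic reticulum. The number in a soybean symbol need not match the number of the related gene in another species, so roles are given by family except where stated.

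Values are log2 of the deposited normalized intensity, in which 1 unit is a fold change of 2, and levels of different probe sets were not set against each other. The median intensity per array ran from 7.12 to 7.51, and correlations between arrays of a group ran from 0.935 to 0.989. The P treatment separated the arrays little: 16 of the 24 arrays correlated on average more closely with the other P group of their own accession and tissue than with their own group, among them all 6 CD leaf arrays and all 6 YH root arrays. The tissue labels were checked with markers. Of 20 leaf photosynthesis probe sets, 19 were called higher in leaves in all 4 comparisons of roots with leaves. Of 6 root isoflavone probe sets, 5 were called higher in roots in all 4. Some symbols, such as psbK and IFS1, had several of these probe sets. The summed intensity of the leaf list was 14603 to 18309 in leaves. In roots it was 4368 to 4896 in CD and 2178 to 2900 in YH, so the sum was higher on the root arrays of CD. A sum of linear intensities is weighted to the brightest probe sets, and the mean log2 intensity in roots ran from 0.96 for RBCS1 to 9.99 for psbA. Which genes of the list gave the difference between CD and YH roots was not examined.

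Signal was low for many members. The mean over 24 arrays was at or under 2.02, the bound of the dimmest 33.3% of all probe sets, for 33 members, among them 16 SWEET, 7 NIP, 6 ALMT and the single YSL1. The group mean was under the lower quartile of the arrays in all 8 groups for 11 members. A member was called a differentially expressed gene (DEG) when it differed by a fold of 2 or more with an adjusted p from limma below 0.05. Over the 12 comparisons of 2 groups, 58 members were called at least once (27.7% of all probe sets) and 53 never, and 30 of those 53 were among the dim members. Tissue called 54 members (24.7% of all probe sets), accession 31 (12.9%) and P treatment 1 (0.53%).

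**Figure D1:**
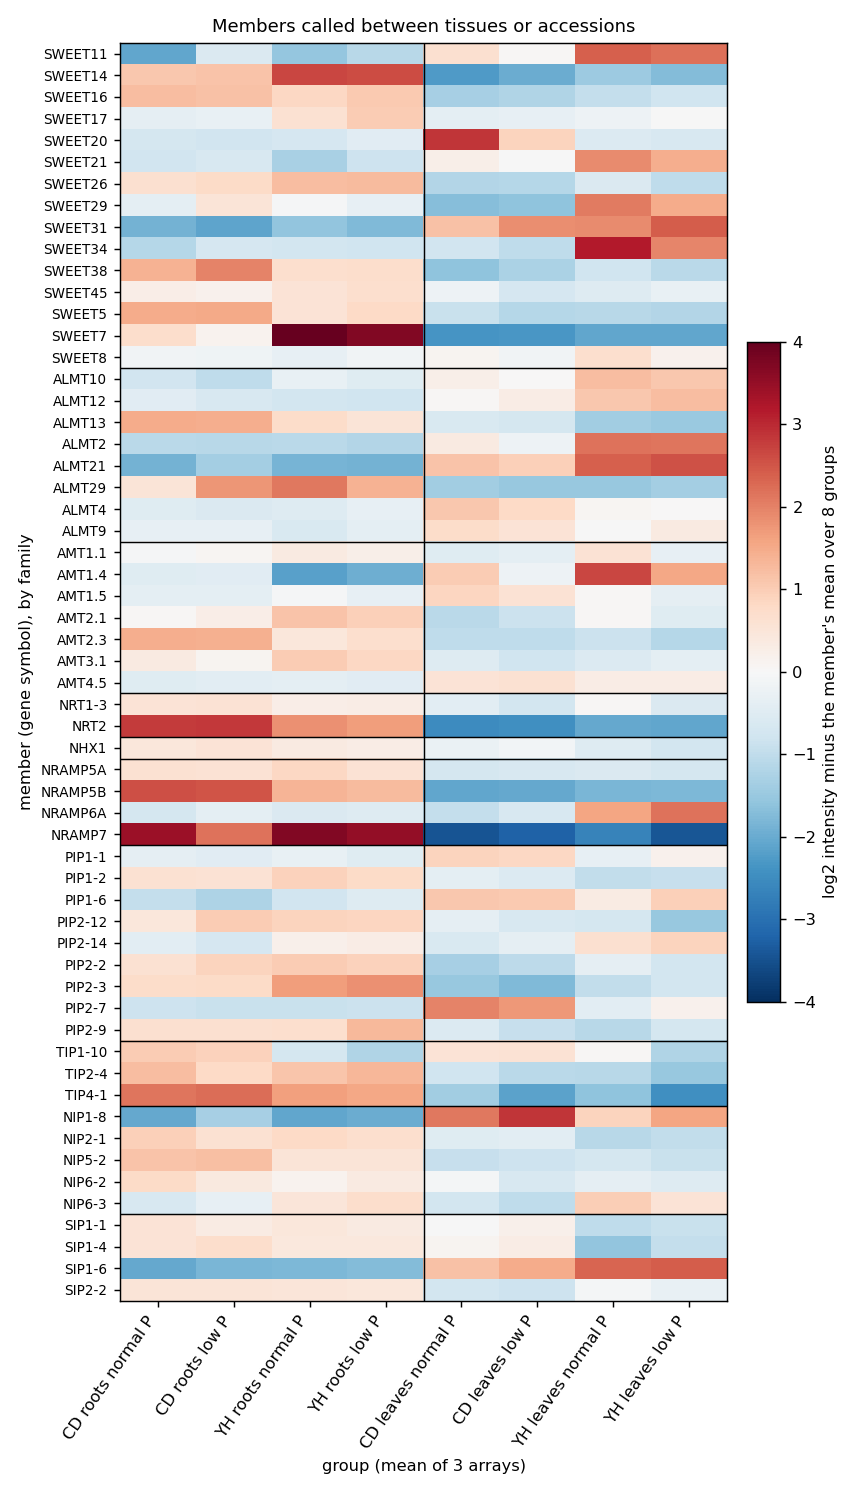
Members called between tissues or accessions, 1 per row, ordered by family, with the 8 groups as columns. Colour gives the mean log2 intensity of 3 arrays minus the member's mean over the groups. Tissue is the main contrast, as in NRAMP7 and NRT2, and SWEET29, SWEET34 and NRAMP6A are highest in YH leaves.

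Which transporters responded to 10 days of low P was asked within each accession and tissue. NRAMP7 in CD roots was the only member called, once ALMT16, ALMT34 and NRAMP2A were left out by the rule, and it fell under low P. The median difference of the members was small: 0.028 in CD roots, -0.056 in CD leaves, -0.0077 in YH roots and -0.0086 in YH leaves, against medians of -0.014, -0.0083, 0.0038 and -0.0018 over all probe sets. A median does not show changes that go in both directions. Of 111 members, 1 was called in CD roots (0.42% of all probe sets were called there, 0.0947% of them lower), 0 in CD leaves (0.00395%), 0 in YH roots (0.00132%) and 0 in YH leaves (0.107%). An unadjusted p under 0.05 was given to 9, 8, 1 and 21 of the 111 members in these comparisons by limma, beside 4.03%, 2.57%, 1.54% and 7.71% of all probe sets in the same order. The share of members was thus larger than that of all probe sets in CD roots, CD leaves and YH leaves, and smaller in YH roots. The share among probe sets with a single gene symbol was not computed for this threshold.

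NRAMP7, a member of the divalent metal transporter family, had root values in CD of 10.48, 11.03 and 11.04 at normal P and 9.31, 9.90 and 9.60 at low P. All 3 low P arrays lay below all 3 normal P arrays. The difference was -1.25 ± 0.25 (SE, n = 3 and 3), a fold of 2.38, with an adjusted p of 0.0189 by limma. This SE, like the others given here, uses the spread within all 8 groups and not that of the 6 arrays alone. Leaving out 1 array ended the call in 4 of 6 cases: the adjusted p was 0.125 without normal P replicate 2, 0.145 without normal P replicate 3, 0.171 without low P replicate 1 and 0.064 without low P replicate 3, with differences of -1.16, -1.15, -1.10 and -1.25. It was 0.141 when only the 6 arrays compared were fitted. The call held without normal P replicate 1 (adjusted p = 0.0110), without low P replicate 2 (0.0199), with quantile normalization (0.0311) and with the replicate block (0.0121). In YH roots NRAMP7 was at 11.22, 11.35 and 10.85 at normal P and 10.89, 10.94 and 10.96 at low P, and the groups overlapped. The response of CD roots differed from that of YH roots by -1.04 ± 0.35 (adjusted p = 0.874, limma) and from that of CD leaves by -1.47 ± 0.35 (adjusted p = 0.189, limma), so neither difference passed the test. In YH leaves all 3 low P values of NRAMP7 lay below the normal P values, a difference of -0.76 ± 0.25 that did not pass (adjusted p = 0.336, limma).

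Among the sugar and malate transporters, the members with the next smallest p in CD roots were SWEET29 and ALMT29. SWEET29 had 5.29, 4.88 and 4.85 at normal P and 6.09, 5.83 and 5.76 at low P, so that all low P arrays were above, with a difference of 0.89 ± 0.23 (adjusted p = 0.122, limma). SWEET11, chosen after its values were seen, had the largest positive difference in CD roots, from 1.37, 1.22 and 1.46 to 2.69, 2.17 and 3.73, a difference of 1.51 ± 0.49 that did not pass (adjusted p = 0.399, limma). ALMT29 had 4.04, 3.11 and 2.30 at normal P and 4.82, 4.44 and 3.90 at low P in CD roots, which overlap, and its difference was 1.24 ± 0.38 (adjusted p = 0.318, limma). In YH roots ALMT29 was at 5.25, 4.17 and 4.80 at normal P and 4.61, 4.42 and 3.05 at low P, a difference of -0.72 ± 0.38 (adjusted p = 0.99998, limma). Its normal P level was thus lower in CD roots than in YH roots on every array, and at low P the accessions overlapped. The responses of CD and YH roots differed by 1.95 ± 0.54 for ALMT29, which did not pass without the replicate number in the fit (adjusted p = 0.352, limma) and passed with it as a block (adjusted p = 0.0127, limma). Without CD normal P replicate 1 the response of ALMT29 in CD roots was 1.68, with an adjusted p of 0.0408 by limma. No other setting tried called ALMT29 between P levels in CD roots.

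In CD leaves, AMT1.4, an ammonium transporter, had 7.53, 5.53 and 5.47 at normal P and 5.29, 5.29 and 4.30 at low P. The low P arrays were below, by -1.22 ± 0.44 (adjusted p = 0.99999, limma), and most of that distance came from the first normal P array. In YH leaves AMT1.4 had 7.49, 8.41 and 7.64 at normal P against 7.22, 6.65 and 6.30 at low P, also without overlap, a difference of -1.13 ± 0.44 (adjusted p = 0.472, limma). With replicates 2 and 3 alone the difference in YH leaves was -1.55, with an adjusted p of 0.0389 by limma. No other setting tried called AMT1.4 between P levels in YH leaves. NIP6-2 and SWEET25 differed by -0.57 and -0.54 in CD leaves (adjusted p = 0.99999 for both, limma).

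In YH leaves the smallest p values belonged to SWEET34, AMT1.1 and TIP1-10, all with low P below normal P on every array. SWEET34 was at 7.41, 8.25 and 7.65 at normal P and 7.08, 6.01 and 6.52 at low P, a difference of -1.23 ± 0.31 (adjusted p = 0.137, limma). It passed in some other settings: without low P replicate 1 the difference was -1.51 (adjusted p = 0.0443, limma), and with replicates 2 and 3 alone it was -1.69 (adjusted p = 0.0105, limma). The AMT1.1 probe set 12202060 had 4.93, 6.38 and 5.34 at normal P and 4.72, 4.47 and 4.76 at low P, a difference of -0.90 ± 0.24 (adjusted p = 0.184, limma). Without normal P replicate 1 it was -1.21 (adjusted p = 0.0134, limma). For SWEET34 and AMT1.1 the settings quoted were picked because they gave a call. Leaving out an array called no member in YH leaves in 4 of 6 cases. The other AMT1.1 probe set, 12212152, differed by 0.01 ± 0.20, so the 2 probe sets of that symbol did not move together. TIP1-10, a vacuolar aquaporin by symbol that the RefSeq table lists as a long non-coding RNA, had 3.51, 3.17 and 3.86 at normal P and 1.55, 2.76 and 2.45 at low P, a difference of -1.26 ± 0.35 (adjusted p = 0.205, limma). In YH roots the smallest p values were those of SWEET7 (-0.59), SWEET17 (0.40) and ALMT29, each with an adjusted p of 0.99998 by limma.

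SWEET20 in CD leaves differed most in size and was chosen for description after its values were seen. It had 3.06, 6.51 and 5.99 at normal P and 6.34, 1.76 and 1.54 at low P, while the remaining 18 arrays lay between 1.39 and 2.05. Replicate 1 was thus low at normal P and high at low P, opposite to replicates 2 and 3. Over the 3 replicates the difference was -1.97 ± 0.86 (adjusted p = 0.99999, limma), without low P replicate 1 it was -3.54 (adjusted p = 0.0419, limma), and with replicates 2 and 3 alone it was -4.60 (adjusted p = 8.6e-07, limma). ALMT22, also chosen after its values were seen, showed the same order of arrays in CD leaves, with 3.67, 6.25 and 4.77 at normal P and 6.63, 3.58 and 2.42 at low P. The labels give no way to tell whether the replicate 1 samples of CD leaves carry each other's label. The question bears on every result that uses a CD leaf group. These are the low P differences in CD leaves, CD against YH in leaves, roots against leaves in CD and the interactions with them.

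**Figure D2:**
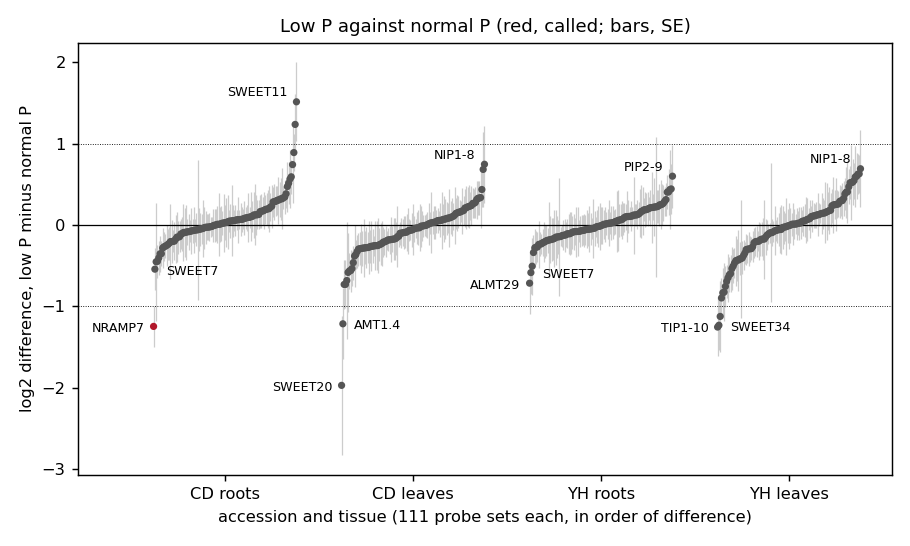
Low P minus normal P on the log2 scale for 111 probe sets in each accession and tissue, sorted by size, with bars of 1 SE and dotted lines at a fold of 2. NRAMP7 in CD roots, at -1.25, is the only red (called) point, and the widest bars belong to members such as SWEET20 whose replicates disagreed.

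No member was called for a difference in its low P response, either between CD and YH in roots (0.158% of all probe sets called) or leaves (0.0237%) or between roots and leaves in CD (0.121%) or YH (0.0079%). An unadjusted p under 0.05 by limma was given to 5, 12, 6 and 7 members in these tests, beside 2.98%, 3.78%, 3.32% and 4.09% of all probe sets.

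Roots and leaves were compared within each accession and P level. Transporters were called more often than the array as a whole. Most of those called were higher in roots, and over all probe sets more were higher than lower in roots too. In CD at normal P, 24 members were higher in roots and 15 in leaves, 35.1% of members called against 14.7% of all probe sets (7.82% higher and 6.87% lower in roots). In CD at low P these were 27 and 10, 33.3% against 15.7% (8.38% higher and 7.37% lower). In YH at normal P they were 27 and 15, 37.8% against 16.9% (10.3% higher and 6.6% lower). In YH at low P they were 28 and 15, 38.7% against 16.7% (9.74% higher and 6.96% lower). Probe sets with a single gene symbol are themselves called more often, 24.4%, 26.1%, 27.4% and 27.4% in the same order. Of those, 13.2%, 14.1%, 17.6% and 16.8% were higher in roots, and 11.2%, 12%, 9.79% and 10.6% lower. Higher in roots in all 4 comparisons were 22 members (4.74% of all probe sets), and higher in leaves in all 4 were 5 members (4.19%).

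**Figure D3:**
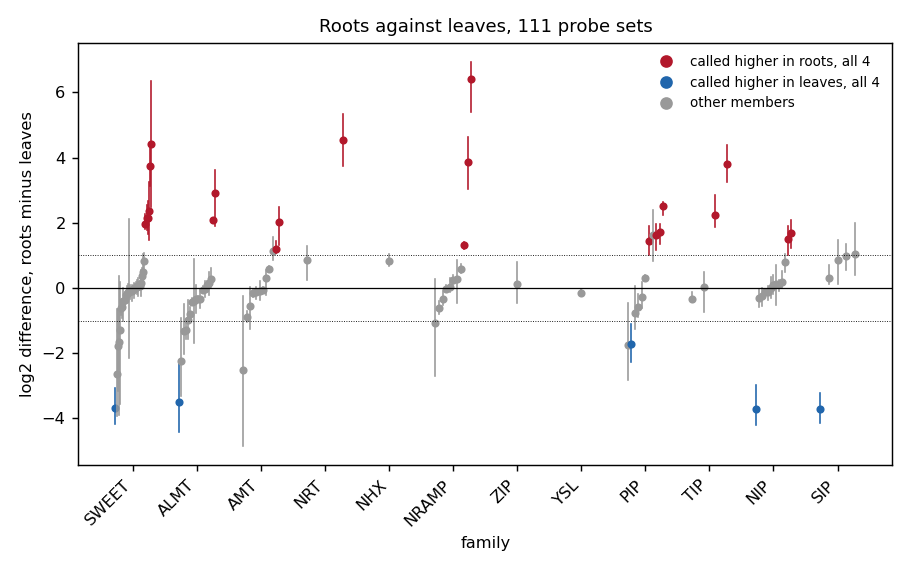
Roots minus leaves on the log2 scale for 111 probe sets by family. Each point is the mean of the 4 comparisons and each line runs from the lowest to the highest of them, with dotted lines at a fold of 2. The 22 red members were called higher in roots in all 4 and the 5 blue members in leaves, and NRAMP7 has the highest mean, 6.41.

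Of the 32 SWEET genes, 6 were higher in roots in all 4 comparisons: SWEET5, SWEET7, SWEET14, SWEET16, SWEET26 and SWEET38. SWEET7 stood 4.41 higher on average, from 2.49 in CD at low P to 6.36 in YH at normal P. Its leaf values ran from 1.15 to 2.18 over the 12 leaf arrays, and its root values from 3.95 to 8.29, so the tissues did not overlap. SWEET14 was 3.73 higher in roots, SWEET38 2.38, SWEET5 2.16, SWEET16 2.13 and SWEET26 1.95. SWEET31 was the only sugar transporter higher in leaves in all 4, by 3.67 on average. It had 0.95 to 1.83 in roots and 3.53 to 6.18 in leaves. SWEET29 was called in opposite directions, higher in roots in CD by 1.33 ± 0.23 at normal P and 2.12 ± 0.23 at low P, and lower in roots in YH by 2.15 ± 0.23 and 1.83 ± 0.23 (highest adjusted p of the 4, 0.000110 by limma). No other member had calls in both directions. Of the other SWEET genes, 5 were higher in leaves and 2 in roots in 1 to 3 of the comparisons, and 17 were not called.

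Among the 18 ALMT genes, ALMT29 and ALMT13 were higher in roots in all 4 comparisons, by 2.90 and 2.09 on average, and ALMT21 was higher in leaves in all 4, by 3.51. ALMT21 had 2.33 to 3.42 in roots and 5.15 to 7.69 in leaves. A further 5 were higher in leaves in 1 to 3 comparisons, among them ALMT2, ALMT10 and ALMT12, and 10 were not called. Of the called ALMT members, 6 were thus higher in leaves and 2 in roots. This split depends on the rule, since ALMT16 and ALMT34, which it left out, were both called higher in roots in all 4 comparisons. Their mean log2 intensities were 6.82 in roots and 2.80 in leaves for ALMT16, and 5.97 and 1.70 for ALMT34.

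The nitrogen transporters were split by gene. NRT2, a member of the high-affinity nitrate transporter family, had 8.15 to 8.41 in CD roots and 6.90 to 7.62 in YH roots, against 2.63 to 4.44 in leaves. The difference was 5.32 ± 0.35 in CD at normal P (adjusted p = 1.3e-10, limma) and 3.74 ± 0.35 at its smallest, in YH at low P (adjusted p = 3.0e-08, limma). NRT1-3, of the family of dual and low-affinity nitrate carriers, was called in 1 comparison and was 0.84 higher in roots on average. AMT2.3 and AMT2.1, ammonium transporters of the second subfamily, were higher in roots in all 4, by 2.02 and 1.19. AMT1.4 was higher in leaves in 3 of 4, by 4.84 ± 0.44 in YH at normal P, 3.50 ± 0.44 in YH at low P and 1.50 ± 0.44 in CD at normal P, and in CD at low P the difference was -0.23 ± 0.44 (adjusted p = 0.787, limma). Of the 12 AMT probe sets, 6 were not called.

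Of the metal transporters, 3 of 11 NRAMP genes were higher in roots in all 4 comparisons and none in leaves. NRAMP7 had the largest mean difference among the 111, 6.41, with 9.31 to 11.35 on the root arrays and 3.77 to 5.49 on the leaf arrays. Its difference was 6.88 ± 0.25 in CD at normal P, 5.41 ± 0.25 in CD at low P, 6.39 ± 0.25 in YH at normal P and 6.94 ± 0.25 in YH at low P (adjusted p no higher than 3.2e-13, limma). NRAMP5B and NRAMP5A were 3.85 and 1.31 higher in roots. NRAMP5 of rice takes up manganese and cadmium in roots. NRAMP5B was at 3.84 to 5.59 on the root arrays and 0.62 to 1.31 on the leaf arrays. NRAMP6A was higher in leaves in YH and was not called in CD, 7 NRAMP genes were not called, and neither were YSL1 nor ZIP43. ZIP43 lies beside genes named BZIP in the RefSeq order, so its place among metal transporters is not settled. NHX1 was 0.82 higher in roots on average and was called in 1 comparison.

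Among the aquaporins, 8 of 33 were higher in roots in all 4 comparisons and 3 in leaves. In the plasma membrane group these were PIP2-3 (2.50 on average), PIP2-2 (1.72), PIP2-9 (1.62) and PIP1-2 (1.43) in roots and PIP1-6 (1.71) in leaves. PIP2 proteins form the more active water channels and PIP1 proteins often need them as partners. PIP2-3 ran from 6.99 to 8.50 in roots and from 4.34 to 6.48 in leaves. The PIP1-6 call in YH at normal P, -1.09 ± 0.25, fell to -0.73 without YH leaf replicate 1, under a fold of 2. In the vacuolar group TIP4-1 and TIP2-4 were 3.79 and 2.24 higher in roots, and TIP4-1 ran from 6.46 to 7.49 in roots and from 2.53 to 4.25 in leaves.

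NIP5-2 and NIP2-1 were 1.68 and 1.50 higher in roots, and NIP1-8 was 3.72 higher in leaves, with 1.28 to 2.71 on root arrays and 3.50 to 6.85 on leaf arrays. In other plants genes named NIP5;1 and NIP2;1 carry boron in Arabidopsis and silicon in rice. SIP1-6 was 3.70 higher in leaves, with 0.69 to 1.56 on root arrays and 3.92 to 5.84 on leaf arrays, and SIP1-1, SIP1-4 and SIP2-2 were higher in roots in 2 comparisons each. Of the 13 NIP genes 9 were not called, against 3 of the 11 PIP genes. This contrast goes with signal, since 7 of those 9 NIP genes were among the dim members and no PIP gene was. Of the 6 NIP genes that were not dim, only NIP1-4 and NIP6-3 were not called. The counts therefore do not show a difference between the families.

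CD and YH were compared within each tissue and P level, which asks which transporters differ between the tolerant and the sensitive accession. In leaves more transporters were lower in CD than higher, and the array as a whole went the other way. At normal P, 5 members were higher and 15 lower in CD leaves (8.22% of all probe sets called, 5.5% higher and 2.72% lower). At low P, 4 were higher and 12 lower (6.92% called, 4.76% higher and 2.16% lower). In roots 4 were higher and 5 lower at normal P (3.01% of all probe sets called, 1.67% higher and 1.34% lower) and 4 and 5 at low P (3.39% called, 2.24% higher and 1.15% lower). The share of members called was 18% and 14.4% in leaves at normal P and low P, and 8.11% at each P level in roots. Among probe sets with a single gene symbol it was 13.5% and 11.1% in leaves, and 4.21% and 4.76% in roots. In leaves 9.18% and 7.74% of those were higher in CD, and 4.27% and 3.34% lower. At both P levels, 11 members were lower in CD leaves (1.58% of all probe sets) and 2 higher (3.68%), and 3 were lower in CD roots (0.774%) and 3 higher (1.19%).

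**Figure D4:**
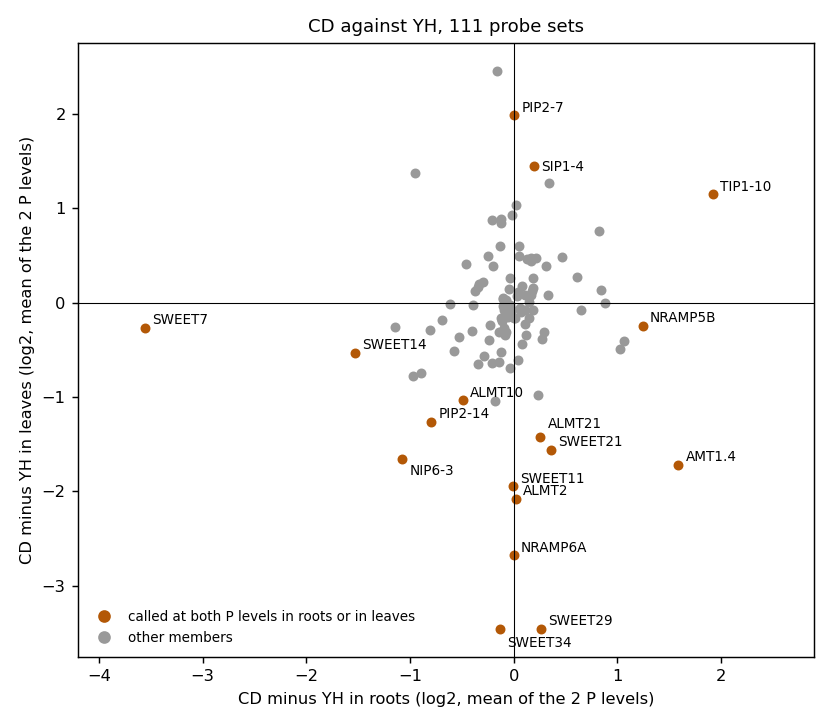
CD minus YH in roots (x axis) and in leaves (y axis), both on the log2 scale as the mean of the P levels, for 111 probe sets. Orange points were called at both P levels in roots or in leaves. SWEET29, SWEET34 and NRAMP6A lie far down and near 0 on the root axis, SWEET7 lies at -3.56 in roots, and AMT1.4 is the only member called at both P levels in roots and in leaves with opposite signs.

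SWEET34 and SWEET29 had the largest deficits in CD leaves. At normal P, SWEET34 was at 4.31, 3.94 and 3.23 in CD leaves and at 7.41, 8.25 and 7.65 in YH leaves, a difference of -3.94 ± 0.31 (adjusted p = 1.1e-08, limma). At low P it was at 3.88, 3.66 and 3.14 in CD leaves and at 7.08, 6.01 and 6.52 in YH leaves, a difference of -2.97 ± 0.31 (adjusted p = 6.8e-07, limma). SWEET29 was at 3.77, 3.81 and 3.44 in CD leaves and at 7.32, 7.70 and 7.40 in YH leaves at normal P, a difference of -3.80 ± 0.23 (adjusted p = 3.0e-10, limma), and the difference at low P was -3.10 ± 0.23 (adjusted p = 6.6e-09, limma). For both genes every CD leaf array was below every YH leaf array, and the root arrays of the accessions overlapped at normal P. At low P the root arrays of SWEET34 overlapped as well, at 4.27, 3.64 and 3.88 in CD and 4.10, 3.73 and 3.53 in YH, while SWEET29 was at 6.09, 5.83 and 5.76 in CD roots and at 5.31, 4.76 and 5.06 in YH roots, every CD array above. The folds were 15.4 for SWEET34 and 14.0 for SWEET29 at normal P, and 7.84 and 8.60 at low P. SWEET11 and SWEET21 were also lower in CD leaves at both P levels, by 1.95 and 1.56 on average. SWEET20 was higher in CD leaves at normal P by 3.40 ± 0.86 (adjusted p = 0.00771, limma), with the array order given above. The value was 4.46 without CD normal P replicate 1 (adjusted p = 0.000632, limma) and 2.74 without CD normal P replicate 2 (adjusted p = 0.0592, limma), which ended the call. At low P it was 1.52 (adjusted p = 0.263, limma), and without CD low P replicate 1 it was -0.044 (adjusted p = 0.981, limma).

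In roots the sugar transporters called at both P levels were SWEET7 and SWEET14, both lower in CD. At low P alone by the call, SWEET17 was lower in CD roots, by -1.31 ± 0.21 (adjusted p = 0.000273, limma), and SWEET38 was higher, by 1.31 ± 0.21 (adjusted p = 0.000316, limma). At normal P the accessions did not overlap either. SWEET17 was then at 1.43, 1.83 and 1.46 in CD roots and 2.73, 2.45 and 2.50 in YH roots. SWEET38 was at 4.70, 4.44 and 4.82 in CD roots and 3.88, 3.91 and 3.95 in YH roots. For neither gene was the low P response called different between CD and YH roots. SWEET7 was at 4.02, 4.99 and 4.59 in CD roots and at 8.09, 8.29 and 7.96 in YH roots at normal P, and at 3.98, 4.04 and 3.95 against 8.00, 7.12 and 7.46 at low P. The accessions did not overlap, and the differences were -3.58 ± 0.26 and -3.54 ± 0.26 (adjusted p = 1.1e-08 and 1.2e-08, limma), folds of 11.96 and 11.61. SWEET14 was at 5.48 to 5.86 in CD roots and at 6.94 to 7.41 in YH roots, with differences of -1.59 ± 0.19 and -1.47 ± 0.19 (adjusted p = 1.1e-05 and 2.8e-05, limma). The summed intensity of the leaf list was higher in CD roots, as given above, and its part in these differences was not tested. SWEET7 was at or under 2.18 on all leaf arrays.

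Of the malate channels, ALMT2, ALMT21 and ALMT10 were lower in CD leaves at both P levels, by 2.08, 1.43 and 1.03 on average. ALMT2 was at 2.95, 2.52 and 2.81 in CD leaves and at 5.24, 4.11 and 4.36 in YH leaves at normal P, without overlap, a difference of -1.81 ± 0.26 (adjusted p = 3.7e-05, limma). In roots of both accessions it lay between 1.04 and 1.50. No ALMT gene was called at both P levels in roots.

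Of the nitrogen transporters, AMT1.4 was the only member that was higher in CD in roots and lower in CD in leaves at both P levels. In roots at normal P it was at 5.26, 4.35 and 4.43 in CD and 2.58, 3.28 and 3.16 in YH, and at low P at 4.39, 4.86 and 4.93 in CD and 3.31, 2.81 and 3.55 in YH. These groups did not overlap, and the differences were 1.67 ± 0.44 and 1.50 ± 0.44 (adjusted p = 0.0231 and 0.0404, limma). In leaves AMT1.4 was lower in CD by 1.67 ± 0.44 at normal P and 1.76 ± 0.44 at low P (adjusted p = 0.00974 and 0.00760, limma). The leaf arrays at normal P overlapped, since CD replicate 1, at 7.53, exceeded YH replicate 1, at 7.49. The root calls were not firm: without CD replicate 1, YH replicate 1 or YH replicate 3 the adjusted p at normal P was 0.142, 0.107 and 0.0513, and at low P leaving out any single array gave 0.0584 to 0.177. AMT1.4 was higher in leaves than in roots in YH and in CD at normal P, and the leaf-gene summed intensity was higher in CD roots (4368 to 4896) than in YH roots (2178 to 2900). Its part in the root difference of AMT1.4 was not tested. NRT2 was 1.07 higher in CD roots on average and was not called.

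Of the metal transporters, NRAMP6A was lower in CD leaves. It was at 3.26, 3.82 and 3.11 in CD and 6.47, 5.19 and 6.17 in YH at normal P, and at 4.10, 3.21 and 3.88 against 7.14, 6.60 and 5.87 at low P. The accessions were apart on every leaf array, by -2.55 ± 0.38 and -2.80 ± 0.38 (adjusted p = 5.1e-05 and 1.9e-05, limma), and in roots they overlapped. NRAMP5B was higher in CD roots at both P levels, with 5.22 to 5.59 in CD and 3.84 to 4.62 in YH. The differences were 1.23 ± 0.20 and 1.26 ± 0.20 (adjusted p = 0.000468 and 0.000320, limma). NRAMP7 was lower in CD roots at low P alone by the call, by 1.32 ± 0.25 (adjusted p = 0.00158, limma).

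Among the aquaporins, NIP6-3 was the only one of the 111 members lower in CD in all 4 comparisons (0.213% of all probe sets were), and none was higher in all 4 (0.354%). It was at 4.03 to 4.78 in CD roots and 5.02 to 5.76 in YH roots, and at 3.40 to 4.09 in CD leaves and 4.97 to 6.23 in YH leaves. The accessions did not overlap in either tissue. The differences were -1.12 ± 0.26 and -1.04 ± 0.26 in roots and -1.73 ± 0.26 and -1.58 ± 0.26 in leaves (highest adjusted p, 0.0141 by limma). In roots the fold was just over 2. It fell under 2 at normal P without YH replicate 1 (-0.98, adjusted p = 0.0548, limma) and at low P without CD replicate 2 (-0.99, 0.0568), CD replicate 3 (-0.91, 0.0748) or YH replicate 1 (-0.89, 0.0773).

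PIP2-7 and SIP1-4 were the members higher in CD leaves at both P levels. PIP2-7 was at 7.30, 5.48 and 6.05 in CD leaves and at 4.11, 3.80 and 3.74 in YH leaves at normal P, and at 5.90, 6.34 and 5.91 against 4.62, 4.47 and 4.34 at low P. The CD arrays were above in both, by 2.40 ± 0.28 and 1.57 ± 0.28 (adjusted p = 3.3e-06 and 0.000485, limma) and in roots the accessions overlapped. SIP1-4 was 1.66 ± 0.23 and 1.24 ± 0.23 higher in CD leaves (adjusted p = 2.4e-05 and 0.000650, limma). PIP2-14 was lower in CD leaves at both P levels, by 1.26 on average. TIP1-10 was higher in CD roots at both, with 3.77 to 5.09 in CD against 1.73 to 3.22 in YH, differences of 1.72 ± 0.35 and 2.13 ± 0.35 (adjusted p = 0.00355 and 0.000420, limma).

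**Figure D5:**
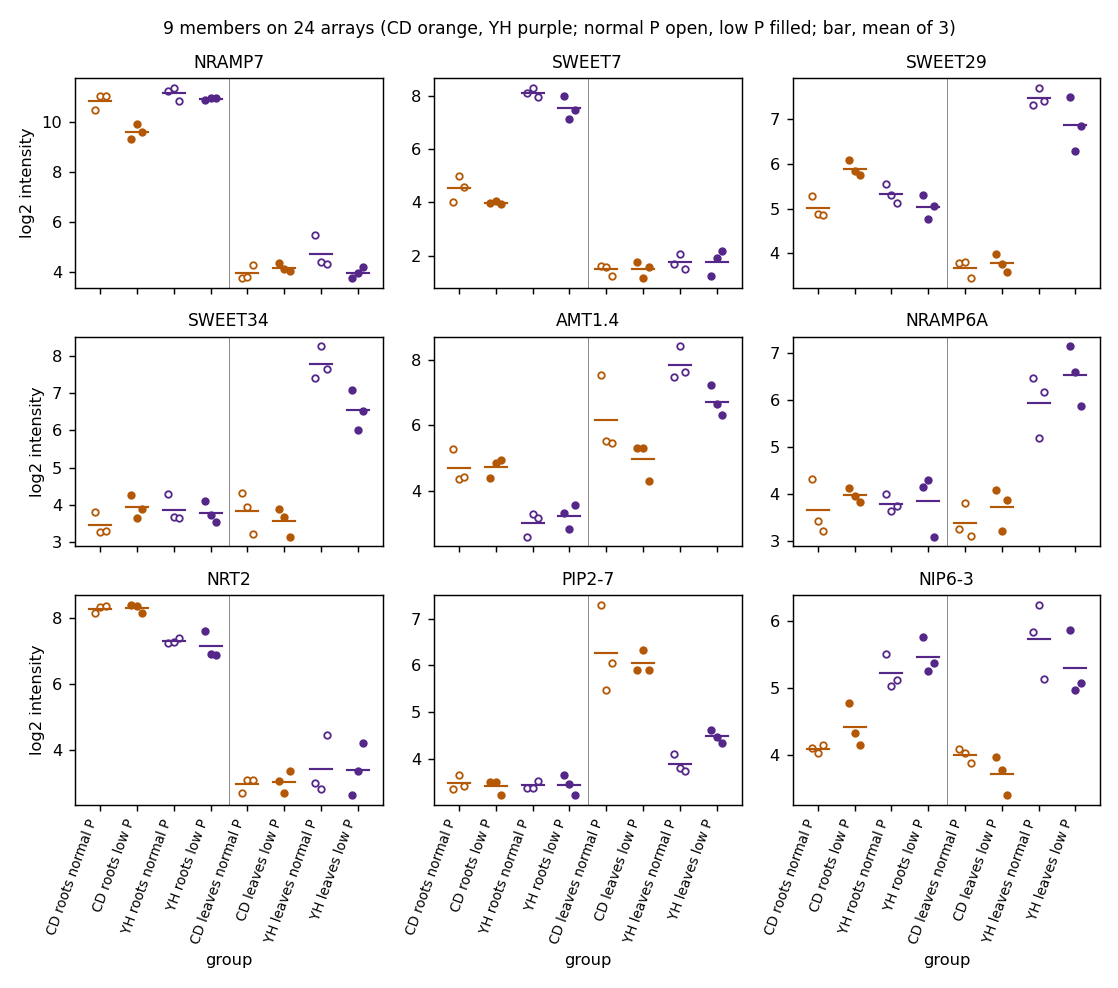
Log2 intensity of 9 members on each of the 24 arrays, by group (CD orange, YH purple, normal P open, low P filled, bar at the mean of 3), each panel with its own axis. The NRAMP7 low P arrays of CD roots lie at 9.31 to 9.90, below the normal P arrays, SWEET29 and SWEET34 are high in YH leaves, and AMT1.4 changes its order of CD and YH between roots and leaves.

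Whether the distance between roots and leaves differed between CD and YH was tested directly. At normal P, 15 members were called (5.7% of all probe sets), 11 with a larger roots minus leaves difference in CD (2.22%) and 4 with a smaller one (3.48%). At low P, 16 were called (5.95%), 11 with a larger (2.42%) and 5 with a smaller one (3.53%). Over both P levels and the tests of the P response, 18 members were called in an interaction. SWEET29 led at low P with 3.95 ± 0.33 (adjusted p = 1.3e-07, limma), followed by AMT1.4 with 3.27 ± 0.62 and SWEET34 with 3.12 ± 0.43. SWEET7 had the most negative value at low P, -3.27 ± 0.37. SWEET29, SWEET34, NRAMP6A, ALMT2 and PIP2-7 differed between the accessions in leaves and not by call in roots, SWEET7 in roots and not by call in leaves, and AMT1.4 in both, in opposite directions.

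Some neighbouring genes behaved unlike each other. In the order of the RefSeq genes of the assembly Glycine_max_v4.0, 9 pairs of members lay side by side. SWEET20 and SWEET21, on chromosome 8, differed between the accessions in leaves by 2.46 and -1.56 on average, SWEET20 with a call at normal P alone. AMT1.4 and AMT1.5, on chromosome 10, differed in leaves by -1.72 and 0.87 on average, and AMT1.5, at 0.82 and 0.93, was under a fold of 2 and was not called. SWEET5, on chromosome 4, was higher in roots in all 4 comparisons while SWEET4 beside it was not called, and the same held for SWEET26 and SWEET25 on chromosome 8. SWEET4 and SWEET25 were among the dim members, with means of 1.48 and 1.61 over 24 arrays, so the lack of a call there says little. PIP2-9 and PIP2-12, on chromosome 2, were alike, with roots higher by 1.62 on average for both. How far probe sets of such neighbours share sequence was not examined here.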

How the data were processed

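Per the series table, each probe set has 1 deposited linear intensity on every array, already normalized between arrays by the authors (RMA by the published methods, MAS5 by the submitters' processing notes, version not given). All 24 columns were used and 0 values were missing, so the first step was log2 of each deposited intensity. Of 75990 probe sets, 32405 carry 1 symbol in the platform annotation, 1586 several and 41999 none. All 111 members matched the RefSeq gene table (Glycine_max_v4.0) by gene ID and symbol, and 110 are protein coding there. No coordinates or sequences are given.

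The linear model of limma 3.58.1, run in R 4.3.3, had a mean for each of the 8 groups and left 16 residual and 4.22 prior degrees of freedom. Benjamini-Hochberg adjustment ran over all probe sets within each of 12 comparisons and 6 interactions. The test was checked on simulated data. Members were named by a fixed rule: the smallest 3 p values per P comparison, the largest difference per family called alike in all 4 tissue comparisons, the largest 3 in each direction between accessions, and every member called in an interaction. The members, lists and rule were chosen with earlier results of these data known. An exact two-sided test of 3 arrays against 3 cannot go below 0.1. Calls rest on each probe set's variance pooled over the 8 groups and moved towards that of all probe sets. The number of arrays limits the precision.

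Settings tried as alternatives were quantile normalization, leaving out the dimmest 33.3% of probe sets, a separate fit per comparison, the replicate number as a block, calls without the fold threshold, a stricter adjusted p of 0.01, averaged probe sets per symbol, a family name anywhere in the symbol and leaving out each array. Chosen after seeing the data were a block shared by all 24 arrays and the use of only replicates 2 and 3. Same-number arrays were taken as paired where all 3 correlations of their deviations exceeded 0.1, which held in 5 of 12 comparisons, CD and YH roots between P levels included. The permutation-based test of the published methods (SAM) was not run here.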

Additional observations from a re-analysis of the deposited data

Results flagged for a closer look

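The tests that met the condition for a closer look were those in which the roots minus leaves difference was called different between CD and YH by limma. Each value is the log2 difference in CD minus that in YH, so a positive value means that roots stood higher against leaves in CD. No explanation was tested.

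Among the sugar transporters at normal P, SWEET34 had 3.54 (adjusted p = 2.2e-05), SWEET29 3.48 (7.9e-07), SWEET21 2.18 (0.00272), SWEET38 1.54 (0.00227) and SWEET7 -3.31 (7.3e-06). At low P, SWEET29 had 3.95 (1.3e-07), SWEET34 3.12 (8.7e-05), SWEET11 2.68 (0.0182), SWEET21 1.65 (0.0201), SWEET38 1.48 (0.00297), SWEET14 -1.21 (0.00714) and SWEET7 -3.27 (7.7e-06). The low P calls of SWEET11 and SWEET21 were each lost without CD roots replicate 3 (adjusted p = 0.0629 and 0.0645), CD leaves replicate 3 (0.0589 and 0.0607) or YH leaves replicate 1 (0.0524 and 0.0584), and that of SWEET21 also without YH leaves replicate 3 (0.0504).

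Among the malate channels, ALMT2 had 1.80 (adjusted p = 0.00358) at normal P and 2.39 (0.000237) at low P, ALMT12 had 1.32 (0.0163) and 1.11 (0.0458), and ALMT21 had 1.26 (0.0380) and 2.11 (0.000757). Leaving out an array gave ALMT21 at normal P an adjusted p of up to 0.102, the value without CD roots replicate 1, and ALMT12 at low P one of up to 0.142, without CD roots replicate 3. For these, 7 and 8 of the 12 arrays each ended the call when left out.

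Among the ammonium transporters, AMT1.4 had 3.34 (adjusted p = 0.00152) at normal P and 3.27 (0.00178) at low P, AMT1.5 had -1.16 (0.0148) and -1.003 (0.0359), and AMT2.3 had 1.16 (0.00239) at normal P. The AMT1.5 value fell to -0.95 without CD leaves replicate 1 at normal P, and at low P leaving out any of 10 arrays ended the call, with an adjusted p of 0.111 without CD leaves replicate 2.

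Among the metal transporters, NRAMP6A had 2.41 (adjusted p = 0.00656) at normal P and 2.93 (0.00124) at low P, NRAMP5B had 1.48 (0.00240) and 1.51 (0.00195), and NRAMP7 had -1.52 (0.00921) at low P. Among the aquaporins, PIP2-7 had -2.35 (0.000696) at normal P and -1.61 (0.0144) at low P, and SIP1-4 had -1.56 (0.00431) at normal P.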

How the results depend on the processing

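Of 119 results for named members, all kept their direction in every alternative run and 99 kept their call. These were picked from the same data for a small p, a large difference or a call, so their direction was likely to hold. SWEET20 was not among them. Its CD against YH difference in leaves at low P went from 1.52 to -0.044 without CD low P replicate 1. Low P calls were the least stable: in CD roots the 1 call became 0 in a separate fit or at an adjusted p under 0.01, and leaving out an array gave 0 to 2. Leaving out an array gave 0 to 1 in CD leaves, 0 to 0 in YH roots and 0 to 1 in YH leaves, where replicates 2 and 3 alone gave 1, 0 and 2 calls and the block over all arrays 1 in YH leaves. Between CD and YH, leaving out an array gave 6 to 9 and 7 to 9 calls in roots at normal P and low P, and 16 to 22 and 13 to 18 in leaves. With no fold threshold these were 16, 14, 35 and 28. Between tissues, leaving out an array gave 36 to 40 and 35 to 39 in CD, and 39 to 42 and 41 to 45 in YH. For differences in the low P response it gave 0 to 0 in all 4 tests, where the replicate block gave 1 between accessions in roots, and replicates 2 and 3 alone gave 1 between accessions in leaves and 1 between tissues in CD. Between accessions in the tissue difference it gave 14 to 18 and 13 to 17. With the replicate block, the paired comparisons kept 1 call in CD roots and 0 in YH roots between P levels, and no other count of calls between 2 groups moved by over 1.5 times. Outside the comparisons taken as paired, the block ended the call of AMT1.4 between CD and YH roots at low P and of ALMT12 in the tissue difference at low P. The same-number correlations for CD against YH in roots at low P were 0.419, 0.0883 and 0.335, so the bound of 0.1 was narrowly missed. With replicates 2 and 3 alone, TIP1-10 in roots at normal P (1.14) was no longer called. A family name anywhere in the symbol gave 171 members, the 60 added all named BZIP. The causes of these changes were not tested.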

Other observations

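Of 4 related transporters outside the naming rule, 2 were higher in roots in all 4 comparisons. STP1, a sugar carrier of the proton-coupled kind by name, had a mean log2 intensity of 7.53 in roots and 5.53 in leaves. FRD3b, named after a citrate exporter of Arabidopsis, had 6.03 in roots and 2.10 in leaves, and it was the only one called between P levels. BOR2, a borate exporter by name, was called higher in roots in 3 of 4 comparisons, with 6.85 against 4.86, and HMA8, a metal-pumping ATPase by name, was called higher in leaves in 1, with 5.63 in leaves and 4.77 in roots.

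A further 8 probe sets carried several symbols, including one of a family named in the rule, and were left out because the signal cannot be given to 1 gene. The probe set shared by PIP1-7, PIP1-8 and PIP1-10 had a mean of 9.52 in roots and 5.03 in leaves and was called higher in roots in all 4 comparisons. The probe set shared by SWEET15 and another gene had 1.84 in roots and 6.83 in leaves and was called higher in leaves in all 4.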
